A study of Mus musculus with 38 samples.

Results

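The genes of the cytosolic ribosomal proteins are described here across the MYC-driven mouse kidney tumour models, their cell lines and normal kidney. Members are the rows of the expression table whose symbol begins with Rpl, Rplp, Rps or Rpsa in the form used for ribosomal proteins. Of 98 such symbols, 10 kinases of the Rps6k family and 2 genes with a pseudogene name were left out. Another 2, Rpl10l and Rpl28, were listed at 0 in every library and were left out too. This gave 84 of the 21705 genes in the table. They comprise 42 large subunit genes, 31 small subunit genes, 3 genes of the stalk, 7 sequence paralogs of another ribosomal protein, and Rps19bp1, which has the name but encodes a protein that binds Rps19. Rpl28 encodes a large subunit protein, so it can be given only as listed at 0, with no statement on its level.

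The cytosolic ribosome has a small subunit that decodes the mRNA and a large subunit that forms the peptide bond, and each is built from ribosomal RNA and a fixed set of proteins. Ribosomal protein genes are transcribed at high rates in growing cells, and many of their mRNAs start with a run of pyrimidines that ties their translation to mTOR signalling. MYC is a transcription factor long known to raise ribosome production, through ribosomal RNA synthesis, assembly factors and the ribosomal protein genes themselves. In the renal tubule, a largely non-dividing epithelium, ribosomal protein mRNA is a small part of the total.

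The table covers 38 libraries in 10 groups. Cells of 3 genotypes were cultured for 24 h after plating with 2 µg per ml doxycycline (Dox) or without it, with 4 libraries each. The paper's methods describe deriving and culturing such lines in medium with Dox, and a figure legend describes the comparison as Dox removal. A gene said below to rise with Dox is therefore one that was higher with Dox than after plating without it. MYC cells carry a Dox-inducible MYC transgene, VM cells also lack Vhl, and VIM cells lack Vhl together with Ink4a/Arf. Tumours of the same 3 genotypes gave 3 libraries each, all from mice kept on Dox, and wild type kidney given vehicle gave 5. According to the methods, the Ksp promoter, active in renal tubule cells, drives both the rtTA that responds to Dox and the tamoxifen-inducible Cre that deletes Vhl, while Ink4a/Arf is deleted in the germline. Each genotype is represented by 1 cell line. The MYC line bears the number of mouse 2983 in its labels, and the VM line bears that of mouse 3055 in the paper's text alone. Of the 3 MYC tumour libraries, 2 came from mouse 2983, so MYC tumours represent 2 animals. The kidney libraries have titles with B6 (replicates 1 and 3) or KT (replicates 2, 4 and 5), a code that the labels do not explain. Nothing in the labels places replicate dishes of a line in separate experiments, so p-values in cells measure the spread between these dishes, which may be technical.

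Values are RSEM estimates that the authors scaled to an upper quartile of 1000 in each library, and are called units below. Estimated depth, in reads assigned to genes, was 8.22 to 15.5 M per tumour or kidney library and 12.4 to 36.6 M per cell library. In 76 of the 84 genes every library held more than 3 reads. The kidney epithelium markers Cdh16, Pax8, Pax2, Epcam, Krt8 and Krt18 were detected in all 10 groups. The proximal tubule markers, by contrast, summed to 197775 to 232446 units in kidney and 1773 to 10506 units in tumours. The targeted genes followed the labels in cells: Vhl had 8.32 to 38.8 units in VM and VIM cells against 433 to 543 in MYC cells, and Cdkn2a had 24.9 to 40.8 units in VIM cells against 3056 to 5701 in the other lines. In tumours they followed them in part: Vhl had 40.2 to 79.9 units in VM, 219 to 312 in VIM and 468 to 560 in MYC tumours, and Cdkn2a had 30.1 to 95.5 units in VIM and 3392 to 4347 in VM tumours but 59.3, 108 and 2872 in MYC tumours. Mouse Myc was lower with Dox than without it in each line (338 to 413 against 1308 to 1406 units in VM cells). The MYC transgene itself was not analysed here.

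Promoter sequences were examined for the pyrimidine run and for the E-box, the element that MYC binds. RefSeq promoter windows of the GRCm38.p6 build were found for 62 of the 84 genes. A run of at least 10 pyrimidines that begins with C lay within 40 bases of the start in 25 of them (40.3%), against 11.1% of all 27025 promoters. The sequence CCGGAAGT, on either strand of the 300-base window, was present in 12 (19.4%) against 4.0% of all promoters. The E-box CACGTG, which reads alike on both strands, was present in 5 (8.06%) against 7.24%. These are matches of letters, not sites shown to be used. The windows of 6 genes with a pyrimidine run are shown because they cover both subunits and because Rps6 and Rps18 differ between the lines below. Each runs from 40 bases before to 20 bases after and including the start, and capitals mark the run.
Rps6, chr4:86857348-86857407, minus strand: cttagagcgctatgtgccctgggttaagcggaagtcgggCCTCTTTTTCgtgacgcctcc
Rps10, chr17:27635225-27635284, minus strand: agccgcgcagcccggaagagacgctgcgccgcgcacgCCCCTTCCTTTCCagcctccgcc
Rps18, chr17:33955646-33955705, minus strand: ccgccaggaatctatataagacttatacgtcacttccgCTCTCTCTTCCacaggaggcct
Rpl14, chr9:120571477-120571536, plus strand: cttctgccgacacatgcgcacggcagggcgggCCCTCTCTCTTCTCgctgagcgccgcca
Rpl15, chr14:18270967-18271026, minus strand: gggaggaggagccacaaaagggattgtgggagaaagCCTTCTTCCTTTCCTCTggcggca
Rpl35, chr2:39005112-39005171, minus strand: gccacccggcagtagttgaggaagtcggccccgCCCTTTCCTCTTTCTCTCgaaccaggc
One of the 5 genes with an E-box, Rpl23 of the large subunit, is shown with the E-box in capitals.
Rpl23, chr11:97782420-97782479, minus strand: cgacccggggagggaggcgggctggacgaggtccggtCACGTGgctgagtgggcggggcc

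Ribosomal protein mRNA made up the smallest part of the library in normal kidney and the largest in tumours. In kidney the 84 genes held 0.606% to 1.03% of all units, with a median of 0.755%. Tumours held 3.29%, 3.52% and 3.66% in the MYC genotype, 3.54%, 4.66% and 5.80% in VM, and 3.01%, 5.20% and 9.06% in VIM. Every tumour lay above every kidney, and the ranges of the tumour genotypes overlapped. Cells lay in between. With Dox the share was 2.26% to 2.36% in MYC cells, 2.08% to 2.21% in VM cells and 2.17% to 2.36% in VIM cells. Without Dox it was 1.51% to 1.56%, 1.22% to 1.36% and 1.21% to 1.26% in the same order. Within each line the ranges with and without Dox did not overlap, and without Dox the MYC line lay above both others. In kidney the highest shares, 1.03% and 0.835%, were those of the libraries titled B6, against 0.606% to 0.755% in those titled KT. In a bulk library, more cells with a high content and more ribosomal protein mRNA per cell cannot be told apart.

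**Figure D1:**
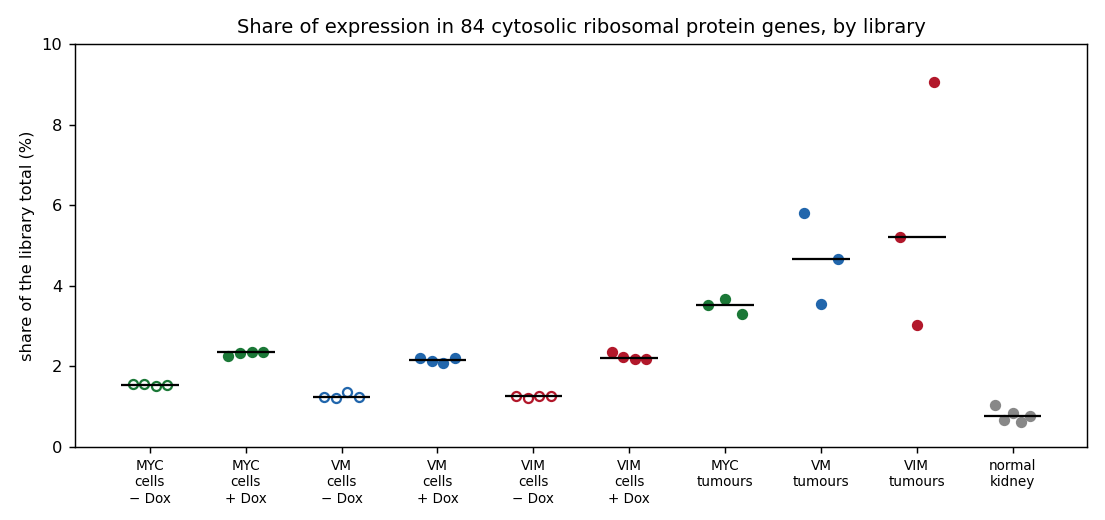
Share of all units held by the 84 cytosolic ribosomal protein genes, in percent, for each library of the 10 groups; filled symbols are tumours, kidney and cells with Dox, open symbols are cells without Dox, and the black line is the group median. Kidney libraries sit between 0.606% and 1.03%, cells between 1.21% and 2.36%, and tumours between 3.01% and 9.06%.

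The level of single members covered a wide range. Averaged over all libraries, 12 genes exceeded 10000 units, 52 exceeded 1000 and 9 were under 100, and 10 genes held 50% of the sum. Levels per length were available for 83 members, without Rpl41, and depend on the annotated transcript taken for each gene. On this scale the large subunit gene Rpl8 had the highest mean in VM cells with Dox, at 22276 units per kb. In normal kidney and in VIM tumours the small subunit gene Rps15 came first among these 83, at 12716 and 74596 units per kb. The middle 50% of members lay between 498 and 3667 units per kb in VM cells with Dox. At the other end, Rpl12, a large subunit gene, never exceeded 4.88 units in any library, a level of a few reads. The sum over the large subunit was 1.18 to 1.32 times the sum over the small subunit in cells, 0.860 to 1.19 times in tumours and 1.05 to 1.16 times in kidney.

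Ribosomal protein genes have many processed pseudogenes, and the reads of a gene can be shared with such copies. In the mm9 genome used by the authors, 83 members had an annotated transcript. The transcript with the longest coding sequence was taken for each gene, whereas the authors used UCSC gene models. Some of those taken are long, such as Rps15a (5130 bases, 4.3% copied) and Rpl24 (4999 bases, 0% copied). Copied shares and levels per kb, and values that relate them, therefore depend on this choice. In the median member, 47% of all 75-base stretches of the transcript, the length of 1 read, had an identical copy elsewhere in the genome. The 37 genes with more than 50% copied had a median of 1502 units per kb, and the 46 others had 2218. In the 6 genes with more than 90% copied, such as Rps27 (99.6%), Rps6 (94.5%) and Rpl36a (92.2%), the median was 438. Across the 83 genes, Spearman's rho between the copied share and the level per kb was −0.21, a description over genes that share libraries and transcript structure. With the log2 change, rho was 0.03, 0.24 and 0.06 for Dox in MYC, VM and VIM cells (78, 74 and 75 genes) and 0.22, 0.20 and 0.24 for MYC, VM and VIM tumours against kidney (77, 78 and 81 genes). The median change of genes with more than 50% copied was 0.76 with Dox in VM cells and 2.59 in VIM tumours, against 0.67 and 2.39 in the others. These are descriptions over genes of the same libraries.

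**Figure D2:**
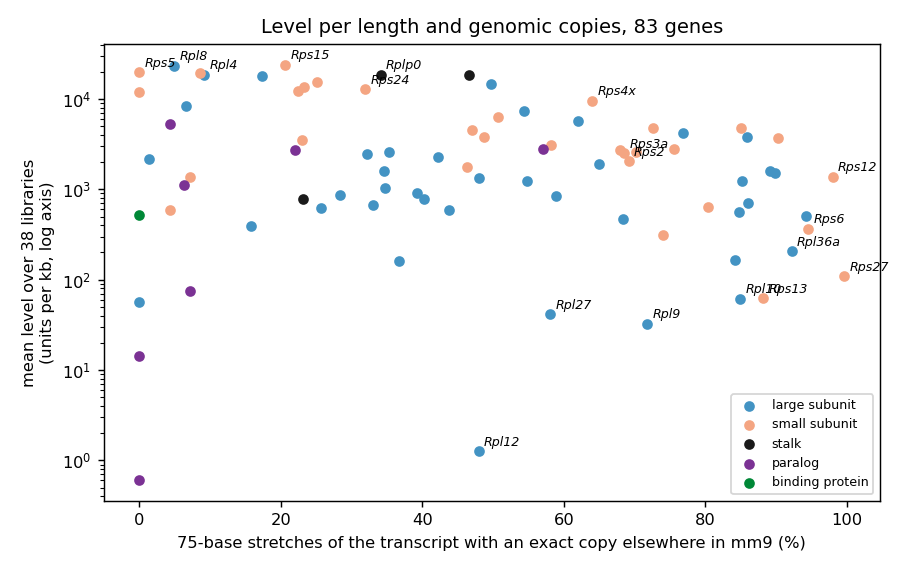
Mean level over all libraries in units per kb of transcript (log axis) against the percentage of 75-base stretches with an identical copy elsewhere in mm9, for 83 members, coloured by class. Genes with more than 90% copied have a median of 438 units per kb, against 2218 in genes with 50% or less.

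Cells with and without Dox were compared to ask how ribosomal protein mRNA differs when the MYC transgene is on. Nearly all members were higher with Dox in each of the 3 lines, by a modest amount, and none was called lower. In VM cells 78 of 82 genes tested were higher (adjusted p under 0.05, limma with Benjamini-Hochberg adjustment over all genes), where 26.1% of all genes were called higher and 47.7% lower. In VIM cells 78 of 81 were higher, against 31.1% of all genes higher and 44.2% lower. In MYC cells 75 of 81 were higher, against 31.5% and 44.0%. The median log2 change of the members was 0.69 in VM, 0.71 in VIM and 0.45 in MYC cells, beside −0.26, −0.15 and −0.13 over all genes tested. Fold changes of this size rarely exceeded 2: the log2 change was over 1 in 7 members in VM cells (5.92% of all genes), 11 in VIM cells (7.67%) and 2 in MYC cells (4.49%). With TMM scaling, which moves the all-gene median of VM cells to −0.06, 27 members of VM cells and 22 of VIM cells exceeded this size, and the counts called higher were 80, 79 and 77 in VM, VIM and MYC cells. The shares of all genes with TMM are not given here. These counts are therefore not set against the percentages above and are not read as a stronger rise of the members.

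The rise extended over both subunits. Of the 42 large subunit genes, 41 were higher with Dox in VM, 39 in VIM and 38 in MYC cells, and of the 31 small subunit genes 29, 31 and 30 were higher. Among 81 genes tested in all 3 lines, 73 were higher in each, where 22.5% of all genes were. The 8 others were Rpl10, Rpl12, Rpl17, Rpl22l1, Rpl24, Rpl36a, Rps13 and Rps27. Rpl10, which completes the peptide transfer centre, is an example: it had 65.8 to 91.1 units with Dox and 67.1 to 100.1 units without it in MYC cells, and these groups overlapped.

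**Figure D3:**
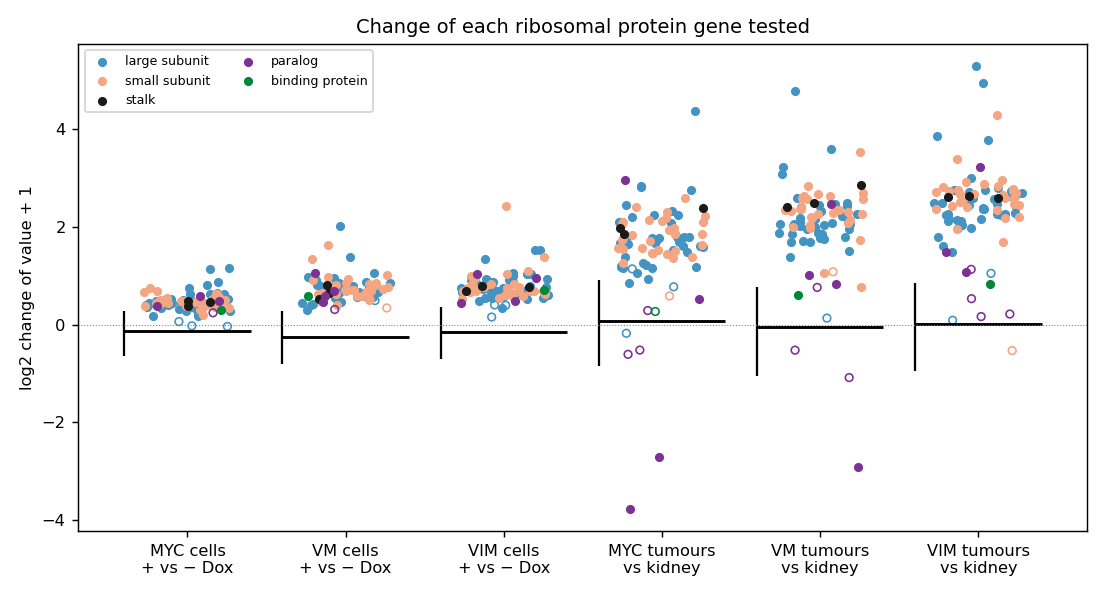
Log2 change of each member with Dox in the 3 lines and in tumours against normal kidney for the 3 genotypes; colours give the class, filled points passed an adjusted p under 0.05 and open points did not, and the black horizontal and vertical lines give the median and the middle 50% of all genes tested. Members centre at 0.45 to 0.71 with Dox and at 1.68 to 2.47 in tumours, while the medians of all genes lie between −0.26 and 0.08.

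The stalk recruits the translation factors that hydrolyse GTP, and its 3 genes were higher with Dox in all 3 lines. Rplp0, the base of the stalk, had 23273, 22055, 21284 and 22656 units in VM cells with Dox and 14608, 15264, 16818 and 15612 without. In VIM cells it had 24563, 23154, 22268 and 21971 units against 13297, 12671, 13612 and 14159. In both lines the lowest library with Dox exceeded the highest without. The log2 change was 0.52 (SE 0.0544) in VM, 0.77 (SE 0.0399) in VIM and 0.38 (SE 0.0298) in MYC cells, and the change was larger in VIM than in VM cells by 0.25 (SE 0.0693, adjusted p = 0.00669). Rplp1 rose by 0.82, 0.79 and 0.49 in VM, VIM and MYC cells and Rplp2 by 0.65, 0.68 and 0.46. Rplp2 overlapped between the groups in MYC cells, where 1 library with Dox had 501 units against 447 to 527 without.

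Rpl5 and Rpl11 join the 5S RNA in the large subunit and, when free, bind Mdm2. Rpl5 had 2329, 2135, 2110 and 2205 units in VM cells with Dox and 1375, 1183, 1283 and 1222 without, a log2 change of 0.79 (SE 0.0514). It rose by 0.72 in VIM and 0.48 in MYC cells. Rpl11 rose by 0.60, 0.91 and 0.49 in VM, VIM and MYC cells, and its groups did not overlap in any line. Rpsa, a small subunit protein also known as the laminin receptor, rose by 0.58, 0.56 and 0.31. Its libraries were close to each other: VIM cells had 5477 to 5677 units with Dox and 3675 to 3857 without.

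The largest rises with Dox were in genes of low or middle level. Rpl34 of the large subunit had 665, 677, 661 and 667 units in VM cells with Dox and 224, 311, 287 and 213 without, which is a log2 change of 1.38 (SE 0.0964, adjusted p = 3.87e-10). In VIM cells it rose by 1.52, and in MYC cells by 0.81. Rps29, a small subunit protein with a zinc finger, had 125, 127, 84 and 89.5 units in VM cells with Dox and 39.7, 39.6, 45.7 and 16.7 without, a change of 1.63 (SE 0.244, adjusted p = 9.61e-06). Every library with Dox was above every one without in both genes. In MYC cells the largest were Rpl36a (1.15, SE 0.341) and Rpl27 (1.14, SE 0.146), with groups that did not overlap. For Rpl36a the change in MYC cells was set in part by 1 library without Dox at 18.4 units, the others being at 77.0 to 99.0. In VIM cells the same gene did not pass (0.15, adjusted p = 0.756): 1 library with Dox had 15.3 units and the others 112 to 136, and without that library the change was 0.88 and passed.

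Rps13 stood apart among the small subunit genes. In VIM cells it had 70.1, 73.5, 48.6 and 66.2 units with Dox and 22.8, 4.46, 16.3 and 8.30 without, a log2 change of 2.43 (SE 0.320, adjusted p = 5.37e-07). In VM cells the groups overlapped, with 45.8, 49.4, 27.2 and 28.9 units with Dox and 19.4, 44.6, 20.9 and 22.8 without (0.51, adjusted p = 0.084). Leaving out the library at 44.6 units gave 0.77 in VM cells, which passed. The change was larger in VIM than in VM cells by 1.92 (SE 0.489, adjusted p = 0.00403). The VIM values without Dox correspond to few reads, and 88.2% of the 75-base stretches of Rps13 have a copy elsewhere.

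The Dox change of the members was larger in VM and VIM than in MYC cells. In VM cells it exceeded that in MYC cells in 51 of 82 genes and fell short of it in 1, Rpl13a, where 17.5% of all genes were called higher and 28.7% lower. For VIM against MYC cells 59 of 81 were called, all higher, against 23.9% higher and 23.6% lower. The median difference was 0.26 and 0.28 on the log2 scale, beside −0.08 and 0.01 over all genes. Between VIM and VM cells only 8 of 82 were called, against 22.8% of all genes higher and 10.5% lower. These were Rps13, Rpl23a, Rpl30, Rpl7l1, Rplp0, Rpl13a and Rpl4, with differences from 0.15 to 1.92, and Rps3a, at −0.64. The call of Rps3a was lost when almost any 1 library of either line was left out, at −0.43 to −0.66. Rpl13a, Rpl23a, Rpl30 and Rpl4 are outside the rule for named genes and were chosen after their values were seen. These contrasts use the same MYC or VM libraries in turn and are not separate evidence. Over members with at least 50 units, the changes in VM and VIM cells had a Pearson correlation of 0.70 (75 genes), against 0.45 for MYC and VM (75 genes) and 0.28 for MYC and VIM (76 genes). Spearman's rho was 0.68, 0.54 and 0.57 in that order, so the pairs differed less by rank. The genes share libraries and scaling within each line, so these values are descriptions. In the titles, the S numbers run on from VM to VIM cells and start again in MYC cells. The J numbers of the same titles skip between VM and VIM cells and run on from VIM to MYC cells. Median estimated depth was 25.6 and 24.8 M reads in MYC cells with and without Dox. In the groups of VM and VIM cells it was 14.3 to 18.8 M, with 36.6 M in the deepest VM library. Whether these features bear on the differences from MYC cells was not tested.

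Markers of proliferation moved with Dox as well. The sum of Mki67, Top2a, Ccnb1 and Mcm5 was 21476 to 22785 units with Dox and 10449 to 12957 without in VM cells, and was higher with Dox in the other lines too. Its part in the ribosomal protein changes was not tested. Of 16 ribosome biogenesis genes such as Ncl, Fbl and Nop56, which process and modify the ribosomal RNA, all 16 were higher with Dox in each line, with median log2 changes of 1.53 in VM, 1.67 in VIM and 0.99 in MYC cells. The 75 genes of mitochondrial ribosomal proteins, which build a separate ribosome, were higher in 63, 73 and 68 cases and lower in 3, 1 and 1, with medians of 0.50, 0.56 and 0.44. Among 17 other mRNAs with a pyrimidine run at the 5′ end, such as those of elongation factors, 15 were higher in each line and 1, 1 and 2 were lower. Escort and assembly factors of single ribosomal proteins were higher in 13, 14 and 14 of 15. Of the 11 regulators of ribosomal protein translation, such as Larp1 and Tsc2, 6, 7 and 6 were higher and 4, 3 and 2 lower. Beside the counts of these lists, 26.1%, 31.1% and 31.5% of all genes were higher in VM, VIM and MYC cells. Those lower were 47.7%, 44.2% and 44.0%.

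VIM and VM cells with Dox were compared to see which members differ between the lines of the genotypes with and without Ink4a/Arf. Most members were alike in size and a few small subunit genes differed by a large factor. VIM was higher in 26 and lower in 13 of 81 genes, against 35.1% and 32.4% of all genes. The members' median log2 difference was 0.07. A difference of over 1 log2 unit was found for 1 higher member, Rps3a (9.69% of all genes), and for 2 lower members, Rps2 and Rps6 (9.45%), and these 3 encode small subunit proteins. Since each genotype is 1 line, genotype and line cannot be told apart.

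Rps3a lies near the exit of the mRNA channel of the small subunit. It had 218, 188, 222 and 246 units in VM cells with Dox, against 3237, 3281, 3242 and 3278 in VIM cells and 1799, 1728, 1799 and 1968 in MYC cells. All VM libraries were far below all others, with a log2 difference of 3.90 (SE 0.0598, adjusted p = 1.39e-17) between VIM and VM cells and −3.06 (SE 0.0682) between VM and MYC cells. Without Dox VM cells had 54.7, 151, 86.0 and 74.4 units. The tumour of mouse 3055, whose number the VM line bears, had 235 units, whereas the VM tumours of mice 3115 and 2459 had 11820 and 6173. In the 6 other tumours Rps3a had 2778 to 12743 units, and in kidney 873 to 1553. The low level was seen in the line and in the tumour library of the same mouse number, and in neither of the other VM tumours. VM tumours as a group thus did not pass against kidney (1.08, adjusted p = 0.394), and without the library of mouse 3055 the log2 change was 2.80 and passed. In mm9 Rps3a lies at chr3:85941862-85946624 on the minus strand, and 68.5% of its 75-base stretches have a copy elsewhere.

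Rps2, which lies at the mRNA entry of the small subunit, was low in VIM cells. It had 211, 175, 171 and 171 units with Dox and 137, 109, 90.8 and 128 without. VM cells with Dox had 2093, 2370, 2097 and 2496 units and MYC cells 1362, 1518, 1454 and 1448. The log2 difference between VIM and VM cells was −3.63 (SE 0.0708, adjusted p = 2.41e-16). VIM tumours were not low: they had 8546, 2524 and 10673 units, all above or within the kidney range of 1560 to 2732. The VIM tumours are from mice 3237, 3233 and 3130, and by the name of the line none of these gave the VIM cells. In mm9 Rps2 lies at chr17:24855061-24858874 on the plus strand, and 69.1% of its 75-base stretches have a copy elsewhere.

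Rps6, the small subunit protein that S6 kinases phosphorylate, was low in both VIM cells and VIM tumours. With Dox it had 90.9, 81.1, 102 and 82.4 units in VIM cells, 328, 345, 382 and 375 in VM cells, and 529, 513, 520 and 535 in MYC cells. The 3 lines did not overlap, and VIM was below VM cells (log2 difference −2.0, SE 0.0895, adjusted p = 7.69e-12). VIM tumours had 154, 112 and 257 units, VM tumours 413, 522 and 570, and MYC tumours 717, 715 and 675. Again the 3 genotypes did not overlap, although the tumour differences did not pass the adjustment (VIM against VM −1.59, SE 0.384, adjusted p = 0.159). Kidney had 138 to 283 units, so VIM tumours overlapped kidney, and Rps6 was the only small subunit gene not called higher in VIM tumours. In mm9 Rps6 lies at chr4:86500564-86503316, 2.42 Mb from Cdkn2a, the gene deleted in the VIM genotype. Whether the position bears on the level was not tested, and 94.5% of the 75-base stretches of Rps6 have a copy elsewhere.

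**Figure D4:**
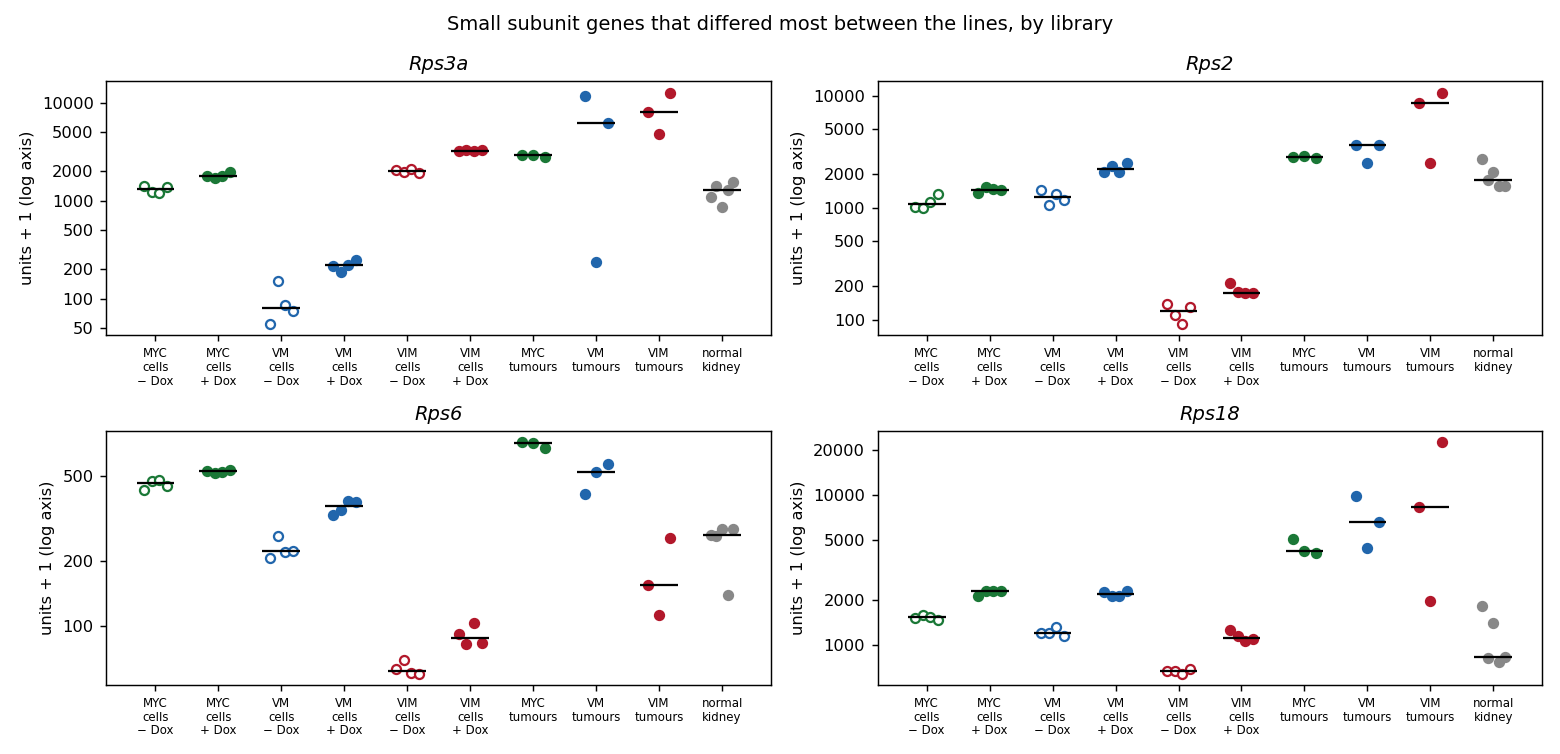
Units plus 1 of Rps3a, Rps2, Rps6 and Rps18 in each library (log axis), by group; filled symbols are tumours, kidney and cells with Dox, open symbols are cells without Dox, and the black line is the group median. Rps3a is low in VM cells and in 1 VM tumour (235 units), Rps2 and Rps18 are low in VIM cells, and Rps6 is low in VIM cells and VIM tumours.

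Other differences between the lines were smaller. Rps24, a small subunit gene with alternative 3′ exons, was higher in VIM than in VM cells, with 10636, 9546, 9472 and 9088 units against 7440, 6757, 6770 and 7231 (log2 difference 0.46, SE 0.0452). Rps18 and Rpl30 were chosen after their values were seen. Rps18, which sits at the head of the small subunit, had 1070 to 1255 units in VIM cells with Dox and 2105 to 2304 in VM cells (−0.95, SE 0.0471). Rpl30 of the large subunit had 506 to 594 against 883 to 940 units (−0.75, SE 0.0502). Against MYC cells, VM cells were lower in 51 and higher in 7 of 82 genes (49.9% and 26.7% of all genes), and VIM cells lower in 43 and higher in 12 of 81 (49.7% and 26.4%). These splits depend on the scaling: with TMM factors they became 32 lower and 15 higher for VM, and 25 lower and 23 higher for VIM. TMM factors move all genes, and the shares of all genes with them are not given here. The TMM counts are therefore not set against the percentages above. The median difference from MYC cells was −0.20 in VM and −0.14 in VIM cells, close to the −0.19 and −0.18 of all genes.

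Tumours were compared with normal kidney to ask how ribosomal protein mRNA in a MYC-driven tumour differs from that in the organ. Members were higher in tumours. In MYC tumours 73 of 84 were higher and 2 lower, against 27.3% and 24.2% of all genes. In VM tumours 78 were higher and 1 lower (25.7% and 29.0%), and in VIM tumours 77 were higher and none lower (25.5% and 26.2%). More than a 1 log2 unit rise was found in 70, 75 and 76 members, against 18.7%, 17.3% and 18.9% of all genes. The median log2 change was 1.68, 2.17 and 2.47 in MYC, VM and VIM tumours, beside 0.08, −0.05 and 0.01 over all genes. The 3 comparisons share the 5 kidney libraries. Across members with at least 50 units, the Pearson correlation of the Dox change with the tumour change was 0.21 for MYC (76 genes), −0.11 for VM (75 genes) and 0.09 for VIM (76 genes), a description over genes that share libraries.

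Both subunits rose in tumours. The large subunit was higher in 39 of 42 genes in MYC, 41 in VM and 40 in VIM tumours, and the small subunit in 29, 30 and 30 of 31. All 3 stalk genes were higher in each genotype. Rplp0 had 12107, 7483, 11803, 6695 and 7394 units in kidney, 37536, 37941 and 26595 in MYC tumours, 63459, 37962 and 50137 in VM tumours, and 48217, 28550 and 114038 in VIM tumours. All 9 tumours were above all 5 kidneys, with log2 changes of 1.97 (SE 0.296), 2.49 (SE 0.272) and 2.61 (SE 0.420) for MYC, VM and VIM. Rplp1 rose by 1.84, 2.41 and 2.59, and Rplp2 by 2.38, 2.86 and 2.62. Rpl5 rose by 1.17, 1.99 and 2.27, Rpl11 by 1.27, 2.10 and 2.48, and Rpsa by 2.06, 2.32 and 2.68, each without overlap with kidney.

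Rpl10a, the large subunit protein of the L1 stalk, had one of the largest rises with a firm kidney level. It had 112, 105, 81.7, 73.3 and 73.4 units in kidney, 770, 559 and 986 in VM tumours, and 987, 851 and 2104 in VIM tumours. The groups were far apart, and the log2 change in VM tumours was 3.08 (SE 0.257, adjusted p = 8.47e-06). Rpl10 rose by 3.22 in VM tumours (SE 0.561), from 3.80 to 11.4 units in kidney to 140, 34 and 62.9. Rpl36a had 0, 4.38, 48.2, 3.26 and 27.8 units in kidney and 184, 148 and 147 in MYC tumours, a change of 4.37 with a wide error (SE 1.37) and a call that was lost without MYC tumour replicate 1 or kidney replicate 2 or 4. In VIM tumours Rpl36a had 220, 180.5 and 363 units (4.94, SE 1.12). Rpl27 was listed at 0 in all 5 kidneys, and had 77.2, 3.76 and 158 units in VIM tumours, so no fold is given. These genes start from a kidney level of few reads, where the fitted change depends on the constant added before the logarithm.

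The sequence paralogs are described gene by gene. Of 7, 2 were higher and 2 lower in MYC tumours (27.3% and 24.2% of all genes). In VM tumours 3 were higher and 1 lower (25.7% and 29.0%), and in VIM tumours 3 were higher and none lower (25.5% and 26.2%). Counts over 7 genes are too small to be set apart from these shares. Rpl22l1, the paralog of Rpl22, had 749, 384, 511, 319 and 282 units in kidney and 4400, 1395 and 4288 in MYC tumours (log2 change 2.96, SE 0.389, adjusted p = 0.000461). It rose by 2.46 in VM and 3.23 in VIM tumours. The ratio of Rpl22l1 to Rpl22 in units was 0.113 to 0.236 in kidney, and 1.01 and 1.12 in MYC tumour replicates 3 and 1 but 0.134 in replicate 2. Replicates 2 and 3 are from the same mouse, 2983, and differed in Rpl22 itself, with 10449 and 4236 units. In VIM tumours the ratio was 0.184, 0.489 and 0.529, and in cells it stayed between 0.132 and 0.285 with or without Dox. In cells Rpl22l1 passed with Dox in VM (0.59) and VIM (0.45), with overlapping groups, and not in MYC cells (0.24, adjusted p = 0.12).

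Rps4y2, which lies on chromosome 6 in mm9 and is the paralog of X-linked Rps4x, was lower in MYC tumours. It had 199, 180, 285, 285 and 256 units in kidney and 46.6, 15.4 and 1.41 in MYC tumours (log2 change −3.78, SE 0.666, adjusted p = 0.00195). VM tumours had 136, 121 and 270 units and VIM tumours 488, 292 and 130, which overlapped kidney. All 24 cell libraries were at 0 to 0.808 units, that is at most about 1 read. Rpl3l, the paralog of Rpl3 known from striated muscle, had 19 to 112 units in kidney, 1.41 to 31.7 in MYC tumours, 1.33 to 24.7 in VM tumours and 61.4 to 97.9 in VIM tumours, and 0 to 2.96 in cells. It was called lower in MYC (−2.71) and VM tumours (−2.92), with groups that overlapped, and the call in MYC tumours was lost without any 1 of 4 kidney libraries. The striated muscle markers Acta1, Ckm, Myh7 and Tnnt3 summed to at most 1.46 units in kidney. Rpl39l was near 0 throughout, at 5.01 units or less.

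Rps27l, a p53-responsive paralog of Rps27, had 6066, 3007, 4050, 2710 and 1791 units in kidney. MYC tumours had 2517, 1660 and 2466 units, VM tumours 9877, 3064 and 5456, and VIM tumours 7190, 3242 and 15284. Tumours overlapped kidney in all 3 genotypes, and no change passed. With Dox, by contrast, Rps27l rose in every line, by 1.05 in VM (SE 0.0540), 1.03 in VIM (SE 0.0370) and 0.59 in MYC cells (SE 0.0357). Rpl7l1, a paralog of Rpl7 that acts in subunit assembly, rose by 0.68, 0.95 and 0.47 with Dox in VM, VIM and MYC cells, and by 0.53, 0.84 and 1.07 in MYC, VM and VIM tumours. In tumours these values lay below the median of all members. Rpl36al, the autosomal paralog of Rpl36a, rose by 0.46, 0.48 and 0.37 with Dox in the same order, by 1.02 and 1.49 in VM and VIM tumours, and did not pass in MYC tumours (0.29, adjusted p = 0.382).

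**Figure D5:**
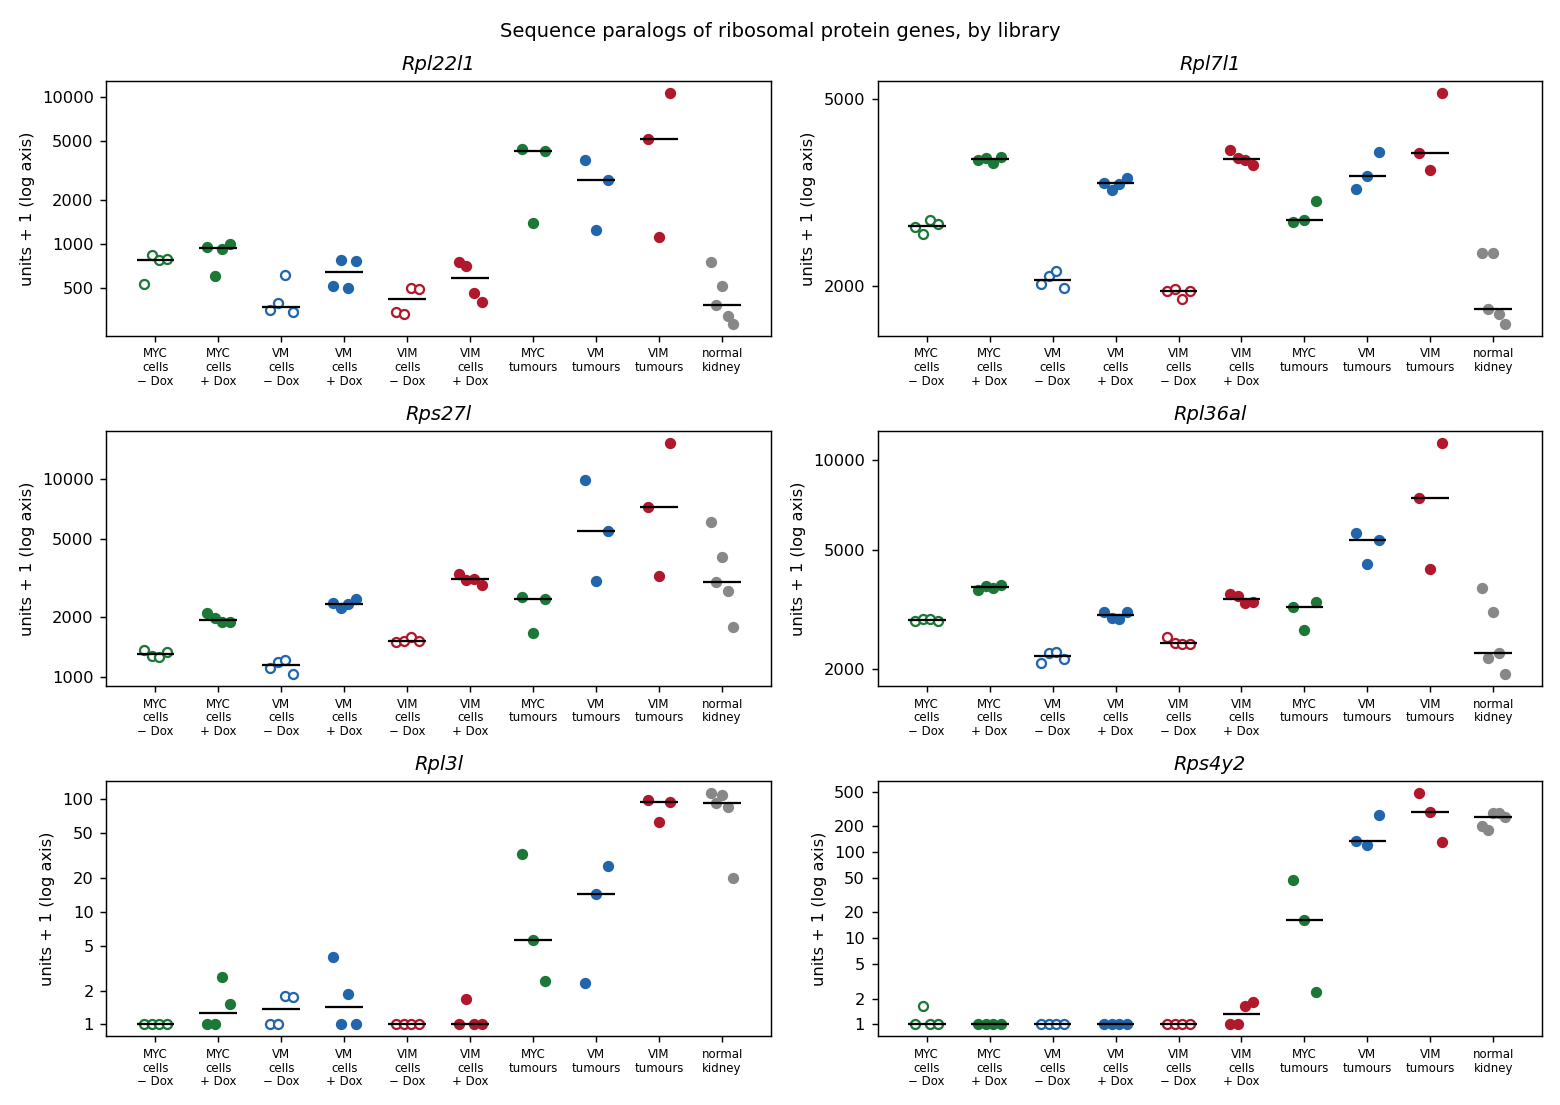
Units plus 1 of 6 sequence paralogs (all but Rpl39l) in each library (log axis), by group; filled symbols are tumours, kidney and cells with Dox, open symbols are cells without Dox, and the black line is the group median. Rpl22l1 is higher in tumours than in kidney, Rps4y2 falls from 180 to 285 units in kidney to 46.6 or less in MYC tumours, and Rps4y2 and Rpl3l are near 0 in cells.

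Between the tumour genotypes no member passed the adjusted test. For VIM against VM tumours 0 of 84 passed in limma, where 0.249% of all genes did, and 2 had an unadjusted p under 0.05. For VM against MYC tumours it was 0 of 83 (0.00% of all genes), with 7 at an unadjusted p under 0.05, and for VIM against MYC tumours 0 of 84 (0.00613%), with 10. The percentages are for the adjusted p. Shares of all genes at an unadjusted p under 0.05 are not given here, so nothing is read from the 2, 7 and 10. Median log2 differences were 0.31, 0.49 and 0.77 in that order. A positive difference, with no test, was found in 74, 75 and 81 members, against 56%, 41.2% and 46.7% of all genes. Ranges did not overlap for 18 higher and 1 lower member in VM against MYC tumours (9.24% and 13.4% of all genes), 14 and 1 in VIM against MYC (12.1% and 13%), and 2 and 1 in VIM against VM (9.67% and 6.09%). The lower one in VIM against VM and against MYC tumours is Rps6. The VIM against VM median turned to −0.14 without VIM tumour replicate 3, of mouse 3130.

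The spread of members between VIM tumours was wide. The median SD of log2 values over members with at least 50 units was 0.94 in VIM tumours, beside 0.43 over all genes of that level, and 0.47 beside 0.34 in VM tumours. In kidney it was 0.40 beside 0.24. In MYC tumours it was 0.20 beside 0.34, where 2 of the 3 libraries are from mouse 2983, so this is not a spread between 3 animals. In cells it was 0.07 to 0.12 beside 0.05 to 0.09. The VIM tumour of mouse 3130 was highest in most members, for example 22375 units of Rps18 against 8330 and 1956. Rpl30, chosen after its values were seen, went the other way, with 178 units in this tumour against 1868 and 1153. Of the 4 erythroid markers listed, 2 were in the table. Their sum was highest in the library with the highest share of each tumour genotype. It was 1496 units in the tumour of mouse 3130, against 81.0 and 118 in the other VIM tumours. It was 1644 units in the VM tumour of mouse 3115, which had the highest share of its genotype, against 95.9 and 187. In MYC tumours it was 502 units in replicate 2, the highest in share, against 138 and 368. The order did not hold throughout: the VIM tumour of mouse 3237 had 81.0 units at a share of 5.20%, and that of mouse 3233 had 118 at 3.01%. In kidney, which had the lowest shares, the erythroid sum was 734 to 2644 units. The part of the erythroid sum in the levels was not tested. The 2 VIM tumours with the higher share, of mice 3130 and 3237, had proliferation sums of 3453 and 4723 units, against 8950 in the tumour of mouse 3233 with the lowest share.

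Markers of other cells differed between tumours and kidney. Leukocyte markers summed to 1840 to 13638 units in tumours and 597 to 925 in kidney, and proliferation markers to 3453 to 16466 against 162 to 274. The loop and distal tubule markers summed to 72772 to 161898 units in kidney and to 6437 or less in tumours. The part of these differences in the ribosomal protein levels was not tested. Ribosome biogenesis genes were higher in 16 of 16 in each tumour genotype, with medians of 2.43, 2.29 and 2.28 for MYC, VM and VIM. Mitochondrial ribosomal protein genes differed between the genotypes in this count: 9 of 75 were higher and 20 lower in MYC tumours (27.3% and 24.2% of all genes), 23 and 3 in VM (25.7% and 29.0%), and 33 and 1 in VIM (25.5% and 26.2%), with medians of −0.22, 0.16 and 0.64. Their share of the library was 0.458% to 0.542% in MYC, 0.645% to 0.774% in VM and 0.677% to 1.01% in VIM tumours, against 0.382% to 0.523% in kidney, so VM and VIM tumours lay above kidney and MYC tumours overlapped it.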

How the data were processed

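RNA of 38 mouse libraries was sequenced by the authors as stranded paired-end 75-base reads. The deposited values are a signal per gene: the authors aligned reads to mm9 with MapSplice, profiled the alignments with Picard 1.64, sorted them with SAMtools, removed alignments with indels, large inserts or zero mapping quality with UBU, estimated gene levels with RSEM, and divided them so that every library has its upper quartile at 1000. The values are not counts, so no count model was used. The removal of reads with zero mapping quality can bear on genes with processed copies, and its effect on the values was not tested. The worth of 1 read was taken from the smallest values of a library, which gave a mean of 17.1 M estimated reads. This estimate covers only what was assigned to genes after the filters, and its mean is below the average sequenced depth that the paper states. The worth of 1 read serves only for depth and for the floor of 3 reads.

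Groups follow the labels. Levels were tested as log2(value + 1) with limma 3.58.1 in R 4.3.3 (eBayes with a trend, two-sided) over all genes above 0 in at least 4 libraries, or 2 for tumours, with Benjamini-Hochberg adjustment over all genes tested. The fold changes are on this log2(value + 1) scale and understate those of low genes. A gene was called with an adjusted p under 0.05. Each of the 15 comparisons used the groups compared, and the Dox effects of 2 lines were compared by an interaction term. Tumour libraries of 1 mouse were averaged on the log scale. The members and gene lists were chosen with earlier results of these data known. Named genes were the paralogs, the stalk, Rpl5, Rpl11, Rpsa and, for the Dox, tumour against kidney and VIM against VM cell comparisons, the 2 largest rises and falls among called members with a mean of at least 50 units and groups without overlap. Alternatives were pseudocounts of 0.1 and 10, other filters, TMM and quantile scaling, a replicate block, and each library left out in turn. On simulated data with 200 genes changed by a log2 change of 1, 98.5% were recovered for Dox in VM cells and 45% for VM tumours against kidney. Same-numbered libraries were checked for pairing. Promoters are from RefSeq (GRCm38.p6), and copies were counted in mm9. Results of some genes are not reported here. Python 3.11.15 and matplotlib 3.10.9 were used.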

Additional observations from a re-analysis of the deposited data

Results flagged for a closer look

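Dixon's test at the 95% level was applied to 155 groups of 4 or 5 libraries, for the shares and the named genes. It marked 8, where chance gives about 1 in 20. Rpl27 had 53.7 units in MYC cells with Dox replicate 1, below the other libraries. Rps13 had 44.6 units in VM cells without Dox replicate 2, and Rplp1 had 8676 units and Rps2 had 211 units in VIM cells with Dox replicate 1, all above the rest of their group. Rps29 had 29.6 units in VIM cells without Dox replicate 3 and Rps6 had 138 units in normal kidney replicate 4, both below the rest. The share of ribosomal protein genes was 1.36% in the VM library without Dox that lay above the others, and 1.21% in the VIM library without Dox that lay below.

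The Dox effect differed between lines by the interaction test in limma for several genes named in the report. Between VIM and VM cells 8 members differed, among them Rps13 (1.92) and Rps3a (−0.64). Between VM and MYC cells 52 differed, among them Rps29 (0.93), Rps3a (0.87), Rpl10 (0.79) and Rpl34 (0.57). Between VIM and MYC cells 59 differed, among them Rps13 (1.92) and Rpl34 (0.71). All values are differences of log2 changes.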

How the results depend on the processing

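Counts of members called for the 3 Dox effects and the 3 tumour against kidney comparisons kept within 1.5 times under every alternative run, and between tumours 0 members passed under all of them. Without a filter on low values the count fell to 25 for VIM against VM cells, to 4 for the Dox effect of VIM against VM cells and to 33 for that of VM against MYC cells. Leaving out 1 library in turn gave 5 to 10 for the Dox effect of VIM against VM cells, the lowest without VM cells with Dox replicate 3, VIM cells with Dox replicate 2 or VIM cells without Dox replicate 1 or 2. It gave 44 to 56 for the Dox effect of VM against MYC cells and 64 to 76 for MYC tumours against kidney. Quantile normalization split the VIM against VM calls into 20 higher and 20 lower, and those of their Dox effects into 4 and 4. The higher and lower calls against MYC cells became 17 and 31 for VM and 19 and 26 for VIM. Shares of all genes under the alternatives are not given here, so these counts are set beside the main counts only. Log2 differences changed sign with quantile normalization for VM against MYC cells in Rpl36a (0.11), Rps13 (0.18) and Rplp0 (0.086), and with TMM in Rplp0 (0.035), and for VIM against MYC cells in Rpl36al (0.019) and Rplp1 (0.011). The cause was not tested. Without the 10 highest genes of each library in the total, the median share was 2.28% and 1.63% in MYC cells with and without Dox, 2.24% in VM cells with Dox, and 2.31% and 1.34% in VIM cells. Without the paralogs and Rps19bp1 it was 2.26%, 1.49%, 2.08%, 2.12% and 1.2% in the same order. Without the 10 highest genes, kidney libraries held 0.682% to 1.20%. MYC, VM and VIM tumours held 3.13% to 3.40%, 3.44% to 5.33% and 2.87% to 7.29%. Without the paralogs and Rps19bp1, kidney held 0.566% to 0.969%, and these tumours 3.19% to 3.60%, 3.45% to 5.65% and 2.92% to 8.82%. Members among the 10 highest left the sum as well. There were 1 to 4 per VIM, 1 to 2 per VM and 1 per MYC tumour. MYC cells with Dox had 0 to 1, and kidney had 0. Of the values of single named genes under an alternative, 4911 kept their direction and call, 121 lost and 67 gained the call, 113 moved with no call and 6 changed sign.

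Same-numbered libraries did not deviate together (mean correlation −0.09 in VM, 0.01 in VIM and 0.04 between VIM and VM cells with Dox), so the numbers were not read as pairs. With a replicate block 79 members were called for Dox in VM, 78 in VIM, 47 for VIM against VM cells (33 higher, 14 lower) and 6 for the difference of their Dox effects.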

Other observations

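Free Rpl5 and Rpl11 are known to hold back Mdm2, so the 5 genes Trp53, Mdm2, Mdm4, Cdkn1a and Cdkn2a were read beside them. With Dox 4 were lower and none higher in VM cells, 4 were higher and none lower in VIM cells, and 2 were higher and 3 lower in MYC cells. Of all genes tested, 26.1% were higher and 47.7% lower in VM, 31.1% and 44.2% in VIM, and 31.5% and 44.0% in MYC cells. Cdkn1a, the p21 cell cycle inhibitor, changed by −1.10 (SE 0.0506) on the log2 scale in VM cells, −0.78 (SE 0.0716) in MYC cells and 0.26 (SE 0.0332) in VIM cells, where Cdkn2a is deleted. Rpl5 and Rpl11 were higher with Dox in all 3 lines. Against kidney 4, 2 and 3 of the 5 were higher in MYC, VM and VIM tumours and none was lower, where 27.3%, 25.7% and 25.5% of all genes were higher.

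The share of the library held by 16 ribosome biogenesis genes had medians of 0.817% with Dox and 0.241% without in VM cells, 0.875% and 0.229% in VIM cells, and 0.868% and 0.375% in MYC cells. It was 0.446% to 0.545% in the medians of the tumour genotypes and 0.0622% in kidney. For these genes tumours thus lay below cells with Dox, whereas for the ribosomal protein genes every tumour lay above every cell library. Other mRNAs with a 5′ pyrimidine run, which include those of elongation factors, were higher than in kidney in 15, 16 and 17 of 17 genes in MYC, VM and VIM tumours, with median log2 changes of 1.56, 1.49 and 1.82. Escort factors were higher in 10, 12 and 12 of 15. The 11 translation regulators were higher in 3, 4 and 3 and lower in 1, 3 and 2. Of all genes, 27.3%, 25.7% and 25.5% were higher, which is near the counts of higher regulators, and 24.2%, 29.0% and 26.2% were lower.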
